A study of Homo sapiens with 30 samples.

Results

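Interferon-stimulated genes are the antiviral genes that a cell switches on after interferon binds its surface receptor. The members described here were 41 such genes, named by symbol, and all 41 were found among the 26255 gene rows of the RNA-seq table. Levels are given as FPKM, fragments scaled to transcript length and library size. Of the members, 39 reached an FPKM of 1 in 1 or more lines, as did 12670 rows in all, and percentages of all genes or of expressed genes refer to those rows unless another number is given. MX2 and SAMD9L did not reach that level. With 1 added to each FPKM, neither was 1.5-fold higher or lower in any pair of lines. Counts with 0.1 added leave both out. Member percentages are nonetheless of all 41 unless another number is given.

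The study used RWPE1 cells, an immortalized line from normal human prostate epithelium, to examine how AKT signaling alters the function of ERG, an ETS-family transcription factor. RNA-seq covered 4 lines. RWPE1-vector carried empty retroviral vectors, and RWPE1-mAKT expressed myristoylated AKT, a form held at the membrane and constitutively active. RWPE1-ERG expressed FLAG-tagged ERG, and RWPE1-ERG/mAKT expressed both proteins. All lines were stably transduced and drug-selected, and all were grown in serum-free keratinocyte medium with EGF and bovine pituitary extract. Each line had 3 RNA-seq libraries, but the values were pooled over them, so differences between lines are given without an error or a test. ERG ChIP-seq of RWPE1-ERG/mAKT and of VCaP (a prostate cancer line with a native ERG fusion, treated here with DMSO) and ATAC-seq of 3 RWPE1 lines gave peaks around the members. ERK2 and H3K27me3 ChIP-seq added further regions, the latter also in a line with the phosphomimetic mutant ERG S96E. Each of these lists came from 1 library.

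In the canonical pathway, interferon receptors activate the kinases JAK1 and TYK2, which phosphorylate STAT proteins. STAT2 acts together with IRF9 at the interferon-stimulated response element, a short promoter sequence with GAAA repeats. The resulting proteins sense viral RNA, degrade or sequester it, block entry or budding, or attach the ubiquitin-like protein ISG15 to other proteins. ERG and other ETS factors bind sequences around the core GGAA, whose letters can also open a response element.

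The response element was present in most member promoters. RefSeq promoters (GRCh38.p14, 250 bases before to 50 bases after the gene start) were available for 34 of 41 members, with DDX58 listed under its newer name RIGI. IFIT2, MX2, OAS2, OASL, IRF7, USP18 and TRIM22 were not matched. The element, searched on both strands as GAAA, any 2 bases and GAAA, occurred in 23 of 34 members (67.6%, Wilson 95% interval 50.8 to 80.9), against 4.38% of all 27305 symbols with a promoter. A single match was held by 9 members, a pair by 10 and 3 matches by 4. The same letters preceded by G, so that the element overlaps an ETS core, occurred in 16 of 34 members against 1.42% of all symbols. The STAT dimer site TTCNNNGAA occurred in 10 of 34 members (29.4%) against 9.38% of all symbols. GGAA by itself was in all 34 promoters but also in 96.3% of all symbols, so it set no gene apart. A match describes letters only and is not evidence of binding.

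The 250 bases before the start are printed for 5 members because they show how the element was arranged in genes that were higher with ERG. All run 5′ to 3′ on the strand of the gene, and capitals mark matches to the element on either strand.
IFI6, chr1:27672193-27672442, minus strand, 3 matches: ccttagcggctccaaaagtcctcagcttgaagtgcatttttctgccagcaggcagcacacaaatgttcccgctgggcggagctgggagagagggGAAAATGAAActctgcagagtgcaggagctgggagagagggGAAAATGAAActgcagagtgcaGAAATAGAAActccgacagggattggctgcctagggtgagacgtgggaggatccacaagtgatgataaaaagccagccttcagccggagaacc
IFI27, chr14:94110486-94110735, plus strand, 2 matches: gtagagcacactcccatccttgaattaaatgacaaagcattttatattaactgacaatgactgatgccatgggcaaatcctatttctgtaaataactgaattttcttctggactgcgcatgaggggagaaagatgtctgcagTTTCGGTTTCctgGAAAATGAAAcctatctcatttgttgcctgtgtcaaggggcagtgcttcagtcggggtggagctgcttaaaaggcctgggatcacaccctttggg
ISG15, chr1:1013247-1013496, plus strand, 2 overlapping matches: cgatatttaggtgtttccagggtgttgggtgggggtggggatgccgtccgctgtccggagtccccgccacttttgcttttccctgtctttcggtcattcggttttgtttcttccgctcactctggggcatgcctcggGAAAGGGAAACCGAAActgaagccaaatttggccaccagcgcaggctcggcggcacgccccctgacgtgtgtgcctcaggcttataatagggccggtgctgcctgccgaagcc
IFIT3, chr10:89327747-89327996, plus strand, 2 matches: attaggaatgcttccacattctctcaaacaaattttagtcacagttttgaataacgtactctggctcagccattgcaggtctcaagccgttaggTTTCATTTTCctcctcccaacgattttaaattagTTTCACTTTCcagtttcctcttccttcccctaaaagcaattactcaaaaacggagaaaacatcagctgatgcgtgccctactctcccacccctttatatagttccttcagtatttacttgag
EPSTI1, chr13:42992242-42992491, minus strand, 1 match: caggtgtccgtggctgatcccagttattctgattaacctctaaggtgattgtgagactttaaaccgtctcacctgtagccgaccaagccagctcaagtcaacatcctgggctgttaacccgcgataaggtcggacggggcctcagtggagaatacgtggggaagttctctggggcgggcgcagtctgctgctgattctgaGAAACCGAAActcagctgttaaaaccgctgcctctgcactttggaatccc
IFI6 held 3 matches on its own strand between positions -156 and -84 relative to the start. IFI27 held a match on each strand, and those of IFIT3 lay on the other strand. The plot of element positions gives the arrangement in every member with a match in the first listed promoter.

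**Figure D1:**
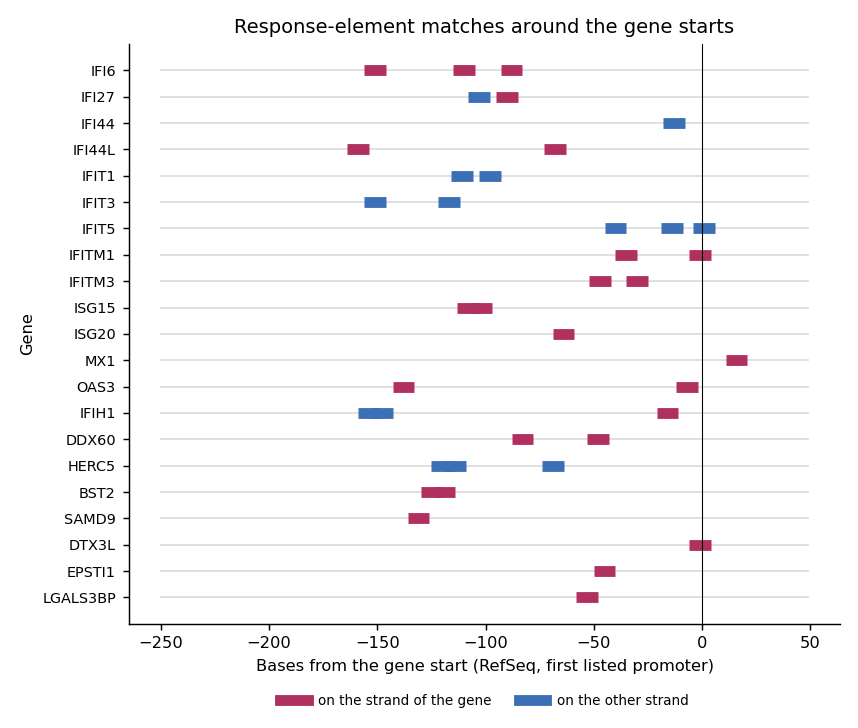
Positions of response-element matches in bases from the gene start (x axis) in the first listed RefSeq promoter of each member (y axis) that held a match, red on the strand of the gene and blue on the other strand. Grey lines show the searched window of 250 bases before and 50 bases after the start. Most matches lay before the start, with MX1 as an exception at 11 to 20 bases after it.

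Nearly all members were higher in cells with ERG alone. In RWPE1-ERG against RWPE1-vector, 40 of 41 members (97.6%) were higher at any size, against 48.1% of expressed genes, and SAMD9 was the exception. At least 2-fold higher on the scale of FPKM with 1 added were 6 members (14.6%), against 3.58% of all genes, and 0 members were 2-fold lower, against 0.971%. The 6 were IFI27, MX1, IFI6, EPSTI1, IFITM1 and TRIM22. With 0.1 added in place of 1 the count was 16 (39.0%), against 4.95% of all genes. At 1.5-fold, 24 members (58.5%) were higher against 7.27% of all genes. The median log2 ratio of the 39 members was 0.72, with quartiles of 0.35 and 0.90, and that of all genes was -0.01. A moderate difference over many members, rather than a large one in a few, made up this shift.

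The same direction was seen when ERG was added to cells with mAKT, a comparison that uses the other pair of lines. This pair also differed in AKT1, at an FPKM of 156 in RWPE1-mAKT and 281 in RWPE1-ERG/mAKT. The part of AKT1 in these ratios was not tested. In RWPE1-ERG/mAKT against RWPE1-mAKT, 36 of 41 members (87.8%) were higher at any size against 36.1% of all genes. At least 2-fold higher were 6 members (14.6%) against 2.03% of all genes, and 0 were 2-fold lower against 0.868%. These were IFI27, RSAD2, OAS1, TRIM22, MX1 and CMPK2. With 0.1 added the count was 13 (31.7%), against 3.00% of all genes. At 1.5-fold, 18 members (43.9%) were higher against 4.43% of all genes, and the median log2 ratio was 0.51 against -0.07 for all genes. In both comparisons at once, 16 of 41 members were at least 1.5-fold higher with ERG, against 2.49% of all genes, and 35 were higher at any size, against 20.5%. Both lines with ERG were above both lines without it for 31 of 41 members, against 14.5% of all genes. The exceptions were BST2, IFIT1, IFIT5, LGALS3BP, OAS3, PARP9, SAMD9, SP110, STAT2 and USP18.

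**Figure D2:**
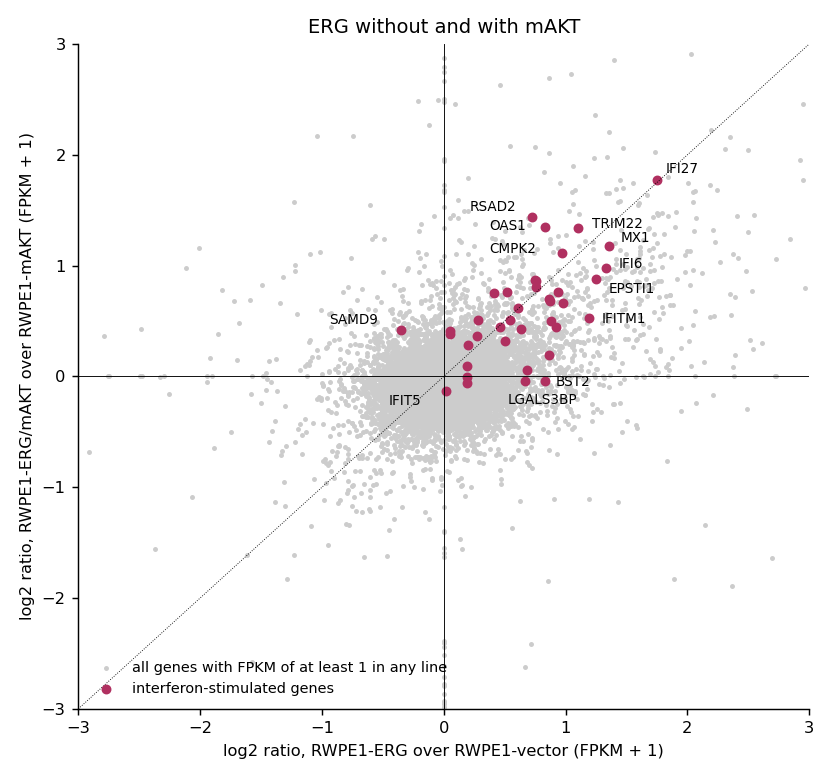
Log2 ratio of FPKM with 1 added for RWPE1-ERG over RWPE1-vector (x axis) and RWPE1-ERG/mAKT over RWPE1-mAKT (y axis), with 39 members in red and all expressed genes in grey. The dotted line marks equal ratios, and 141 grey genes lie outside the axes. Most red points sit in the upper right, with IFI27 at 1.75 and 1.77, and SAMD9 is alone at the left of 0.

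mAKT alone gave smaller differences in the same direction. In RWPE1-mAKT against RWPE1-vector, 0 of 41 members were 2-fold higher (1.14% of all genes were) and 0 were 2-fold lower (0.813%). At 1.5-fold, 2 members (4.88%) were higher, IFI27 and OASL, against 2.19% of all genes. At any size 36 of 41 were higher against 54.7% of all genes, with a median log2 ratio of 0.28 against 0.02. When mAKT was added to cells with ERG, members divided: in RWPE1-ERG/mAKT against RWPE1-ERG, 28 were higher and 13 lower, against 43.1% and 56.4% of all genes. None was 2-fold higher or lower, where 2.02% and 2.47% of all genes were. At 1.5-fold, 6 members (14.6%) were higher against 4.21% of all genes: IFI27, RSAD2, SAMD9, USP18, IFIT2 and OAS1. BST2 was the 1 member (2.44%) lower by 1.5-fold, against 6.85% of all genes. The median log2 ratio was 0.20 against -0.04. These comparisons share lines with those above, so their values stand side by side and were not correlated.

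With both proteins against neither, 14 of 41 members (34.1%) were at least 2-fold higher in RWPE1-ERG/mAKT than in RWPE1-vector, against 2.92% of all genes, and 0 were 2-fold lower, against 1.07%. At 1.5-fold, 27 members (65.9%) were higher against 5.41% of all genes. The median log2 ratio was 0.81 against -0.06. Between the single transductions, RWPE1-mAKT was below RWPE1-ERG with a median of -0.42 against 0.04 for all genes, and 2 members, EPSTI1 and IFI6, were 2-fold lower (4.88%) against 3.58% of all genes. None was 2-fold higher, where 1.47% of all genes were, and 12 (29.3%) were 1.5-fold lower against 7.34%.

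**Figure D3:**
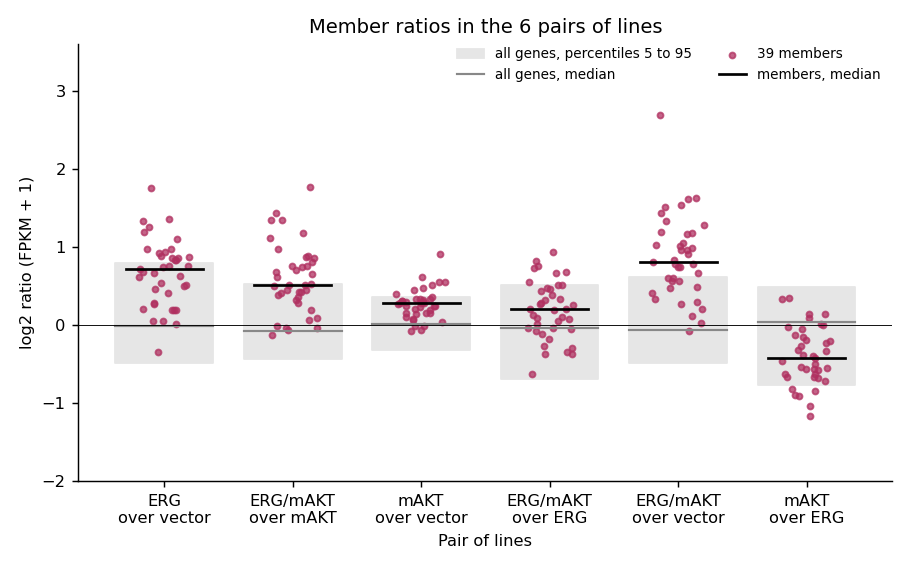
Log2 ratios of FPKM with 1 added (y axis) of 39 members (red points, black bar for their median) in each pair of lines (x axis), over the range of all genes from percentile 5 to 95 (grey box) with their median (grey bar). The member median was 0.72 and 0.51 in the 2 comparisons of ERG and 0.28 and 0.20 in the 2 comparisons of mAKT. The highest point is IFI27 at 2.69 in RWPE1-ERG/mAKT over RWPE1-vector.

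Ranked over the lines, 26 of 41 members had their highest FPKM in RWPE1-ERG/mAKT and 13 in RWPE1-ERG, against 18.2% and 31.9% of all genes. IFIT5 and SP110 were highest in RWPE1-mAKT, and none was highest in RWPE1-vector. The lowest FPKM was in RWPE1-vector for 36 of 41 members (87.8%) against 19.8% of all genes. The exceptions were IFI44L, IRF9 and SAMD9L (lowest in RWPE1-mAKT), SAMD9 (RWPE1-ERG) and STAT2 (RWPE1-ERG/mAKT). Since the spread between libraries is not known, neighbours in these orders cannot be told apart from equal levels.

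IFI27, a small mitochondrial protein and a widely used marker of interferon response, had the largest ratios of the members in each comparison except RWPE1-mAKT against RWPE1-ERG. The gene lies on chromosome 14 at 94577078 to 94583036 (hg19). Its FPKM was 3.96 in RWPE1-vector, 8.34 in RWPE1-mAKT, 15.7 in RWPE1-ERG and 30.9 in RWPE1-ERG/mAKT. The order was vector, mAKT, ERG and both together, and the log2 ratio was 1.75 for ERG without mAKT and 1.77 with it. IFI6, an inhibitor of apoptosis at the mitochondrion (chromosome 1, 27992571 to 27998724), was level between the lines with ERG: its FPKM was 15.4 in RWPE1-vector, 19.2 in RWPE1-mAKT, 40.2 in RWPE1-ERG and 38.7 in RWPE1-ERG/mAKT. The lines without ERG lay below both of them. Of the other IFI genes, IFI44, IFI44L and IFI35 had log2 ratios of 0.63, 0.41 and 0.68 for ERG over vector. IFI35 had 0.06 for ERG/mAKT over mAKT.

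Among the proteins that restrict viruses inside the cell, the GTPase MX1, which traps viral nucleocapsids, had an FPKM of 2.34 in RWPE1-vector, 3.56 in RWPE1-mAKT, 7.57 in RWPE1-ERG and 9.32 in RWPE1-ERG/mAKT. Both lines with ERG lay above both without, by 1.36 and 1.18 on the log2 scale. Its neighbour MX2 stayed between 0.0562 and 0.446. TRIM22, an E3 ubiquitin ligase with antiviral activity, had an FPKM of 0.856 in RWPE1-vector, 1.25 in RWPE1-mAKT, 2.98 in RWPE1-ERG and 4.72 in RWPE1-ERG/mAKT. RSAD2 (viperin), which makes a chain-terminating nucleotide, stood at 0.237, 0.324, 1.04 and 2.60 in the same order of lines. CMPK2, a mitochondrial nucleotide kinase encoded next to RSAD2 on chromosome 2, stood at 0.150, 0.205, 1.25 and 1.60. RSAD2 and CMPK2 were thus near 0 without ERG, so their ratios depend on the value added: with 0.1 added, the log2 ratio for ERG over vector was 1.76 in place of 0.72 for RSAD2 and 2.43 in place of 0.97 for CMPK2.

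The OAS enzymes make a short adenylate chain in response to viral RNA and lie in a cluster on chromosome 12, with OASL apart from it. OAS1 had an FPKM of 1.74 in RWPE1-vector, 2.05 in RWPE1-mAKT, 3.88 in RWPE1-ERG and 6.79 in RWPE1-ERG/mAKT. OASL, the family member without that enzyme activity, had 5.06, 8.33, 9.97 and 14.2 in the same order. Both were lowest in vector and highest with both proteins, and OASL was also 1.5-fold higher with mAKT alone. OAS2 had log2 ratios of 0.76 and 0.81 for ERG without and with mAKT, and OAS3 had 0.05 and 0.41, so OAS3 was the smallest of the family in both.

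IFIT proteins bind viral RNA ends and lie in a cluster on chromosome 10. IFIT1 had an FPKM of 1.99 in RWPE1-vector, 3.37 in RWPE1-mAKT, 3.36 in RWPE1-ERG and 5.21 in RWPE1-ERG/mAKT. IFIT2 had 2.47, 4.10, 4.83 and 8.34, and IFIT3 had 4.12, 6.31, 9.07 and 10.6. For IFIT1 the lines with mAKT alone and ERG alone were level, and the line with both was above them. IFIT5 stood apart from its family, between 6.66 and 7.52 in all lines, although its promoter held 3 matches to the element.

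IFITM1 and IFITM3, membrane proteins that block viral entry, were among the highest members. IFITM1 had an FPKM of 34.4 in RWPE1-vector, 48.5 in RWPE1-mAKT, 79.8 in RWPE1-ERG and 70.3 in RWPE1-ERG/mAKT. IFITM3 ranged from 350 in RWPE1-vector to 664 in RWPE1-ERG, the highest FPKM of the members. These genes lie next to each other and to IFITM2 on chromosome 11, and their near-identical sequences can share reads, so the split between them is uncertain.

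In the ISG15 system, ISG15 itself had an FPKM of 48.0 in RWPE1-vector, 58.1 in RWPE1-mAKT, 93.0 in RWPE1-ERG and 98.9 in RWPE1-ERG/mAKT. HERC6, of the family of ligases for ISG15, had 1.40, 2.03, 3.05 and 4.49 in the same order. Both were therefore higher in both lines with ERG. UBE2L6, the conjugating enzyme, had a log2 ratio of 0.86 for ERG without mAKT and 0.19 with it. USP18, which removes ISG15 and dampens receptor signaling, had 0.05 and 0.38. HERC5, the main ligase, had 0.50 and 0.32.

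EPSTI1 (chromosome 13, 43460523 to 43566407) had an FPKM of 0.990 in RWPE1-vector, 1.10 in RWPE1-mAKT, 3.74 in RWPE1-ERG and 2.86 in RWPE1-ERG/mAKT. It followed ERG and not mAKT, with log2 ratios of 1.25 and 0.88 for ERG and 0.08 for mAKT over vector. BST2 (tetherin, which holds budding virions at the membrane), LGALS3BP and UBE2L6 were instead highest in RWPE1-ERG with a smaller or no difference in cells with mAKT. For BST2 the FPKM was 67.8 in RWPE1-vector, 80.7 in RWPE1-mAKT, 121 in RWPE1-ERG and 78.6 in RWPE1-ERG/mAKT. RWPE1-ERG alone was high for BST2, and the line with both proteins was at the level of mAKT alone. SAMD9, a translation inhibitor, was the member lower with ERG alone, at 3.63 in RWPE1-vector, 3.61 in RWPE1-mAKT, 2.64 in RWPE1-ERG and 5.15 in RWPE1-ERG/mAKT. Only the line with both proteins lay above vector for SAMD9. Its paralog SAMD9L ranged from 0.320 to 0.781. ISG20, an RNA exonuclease, had log2 ratios of 0.88 and 0.50 for ERG without and with mAKT, XAF1, which antagonizes the apoptosis inhibitor XIAP, had 0.52 and 0.76, and SP110, a nuclear body protein, had 0.19 and -0.01. PARP9 and DTX3L, partners in a ubiquitin ligase complex, share a locus on chromosome 3 in the table and had ratios from 0.09 to 0.28 for ERG.

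The difference between the ERG effects with and without mAKT had a median of -0.11 on the log2 scale over 39 members, against -0.06 for all genes, and this median was 0.02 when lines were scaled to their upper quartile. The ERG effect was larger without mAKT for 23 of 41 members and larger with it for 18, against 58.0% and 42.0% of all genes. It ranged from -0.87 for BST2 to 0.77 for SAMD9, and 0 of 41 members differed by 1 or more, as 4.34% of all genes did. No test of this difference was possible.

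**Figure D4:**
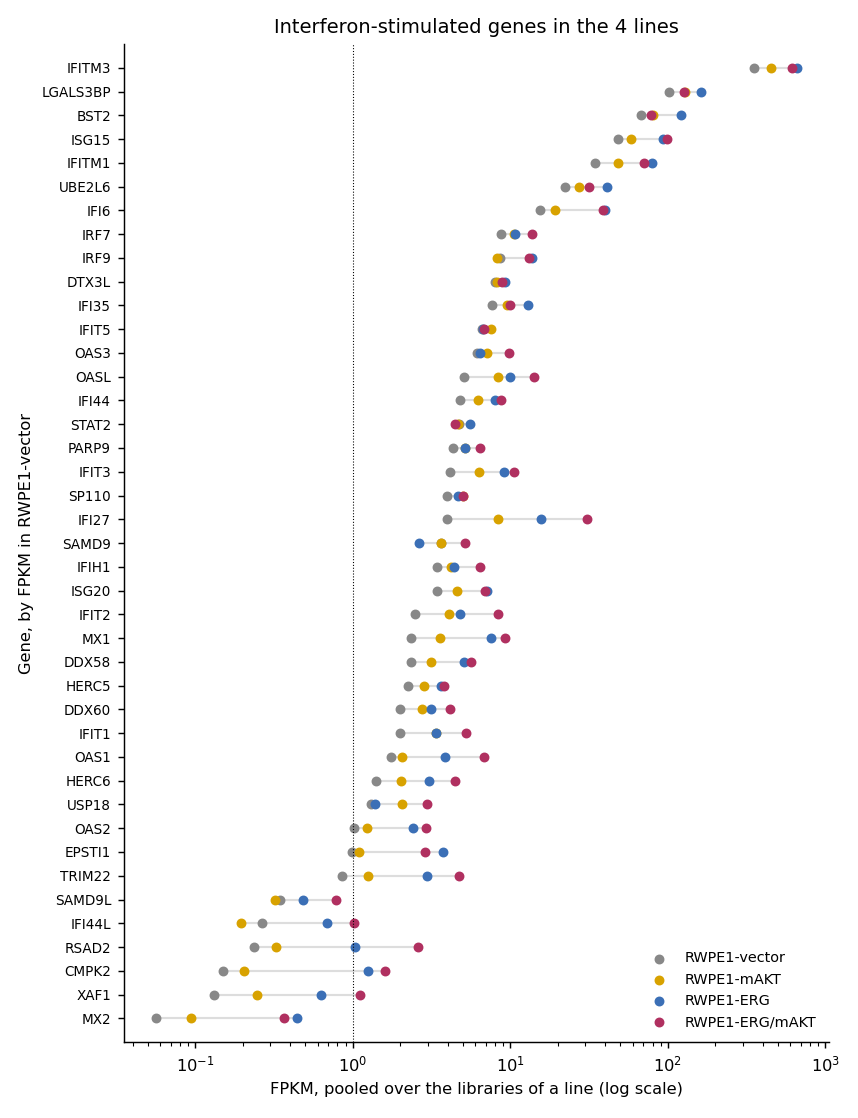
FPKM of each of the 41 members (y axis, ordered by RWPE1-vector) in the 4 lines on a log scale (x axis), each point 1 pooled value, with a grey line over the range and a dotted line at an FPKM of 1. Red and blue points (the lines with ERG) lie to the right of grey and yellow points for 31 of 41 members.

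Of the transcription factors among the members, STAT2, the subunit that brings transcriptional activation, had an FPKM of 4.72 in RWPE1-vector, 4.69 in RWPE1-mAKT, 5.54 in RWPE1-ERG and 4.44 in RWPE1-ERG/mAKT. IRF9, the DNA-binding subunit, had 8.62, 8.24, 13.7 and 13.2 in the same order. IRF7, which amplifies interferon production, had 8.72, 10.5, 10.7 and 13.7. IRF9 was thus higher in both lines with ERG, by 0.61 and 0.62 on the log2 scale, while STAT2 was about level. Of the RNA sensors, DDX58 (RIG-I) had log2 ratios of 0.87 and 0.68 for ERG without and with mAKT, IFIH1 (MDA5) had 0.28 and 0.51, and DDX60 had 0.46 and 0.45.

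A further 85 genes of the pathway were read from lists, and 65 of them were expressed at that level. Of the 85, 1 (1.18%) was 2-fold higher and 0 lower in RWPE1-ERG over RWPE1-vector, where 3.58% of all genes were higher. In RWPE1-ERG/mAKT over RWPE1-mAKT, 3 (3.53%) were 2-fold higher and 0 lower, where 2.03% of all genes were higher. The median log2 ratio of the 65 was 0.16 and 0.08 in these comparisons, below that of the members and above the -0.01 and -0.07 of all genes. At 1.5-fold, 9 and 6 of the 85 (10.6% and 7.06%) were higher, against 7.27% and 4.43% of all genes, and 0 lower in both. The 85 include genes below an FPKM of 1, which the shares of all genes leave out, so these shares are not on the same base. The other interferon-stimulated genes, 32 of the 85, held 6 of the 9 and 4 of the 6 genes higher at 1.5-fold. Most of these 32 were thus not higher at that threshold, and 1 and 3 of them were 2-fold higher. The 29 expressed among them had median log2 ratios of 0.21 and 0.18, well below the 0.72 and 0.51 of the members. The interferons themselves were low: of 11 genes only IFNE reached an FPKM of 1, at 0.633 in RWPE1-vector, 0.365 in RWPE1-mAKT, 1.13 in RWPE1-ERG and 0.760 in RWPE1-ERG/mAKT. IFNB1 ranged from 0 in RWPE1-vector to 0.118 in RWPE1-ERG/mAKT, and IFNA2, IFNA5, IFNG, IFNL2 and IFNL3 were listed at 0 in all lines. Poly(A) RNA-seq of pooled libraries cannot tell a silent interferon gene from a very low one.

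None of the 9 receptor and kinase genes was 1.5-fold higher or lower with ERG in either setting. IFNAR1 stood between 6.79 and 7.40 and TYK2 between 19.9 and 22.3. Of 10 other transcription factors, IRF1, which can bind the response element, had an FPKM of 7.94 in RWPE1-vector, 9.74 in RWPE1-mAKT, 16.8 in RWPE1-ERG and 16.5 in RWPE1-ERG/mAKT. ETV7, itself an ETS-family gene, had 0.269, 0.515, 0.638 and 1.79. Of 8 negative regulators, SOCS1 was 1.5-fold higher in RWPE1-ERG over RWPE1-vector, at 0.63 on the log2 scale. Of 15 sensors and adaptors, IKBKE was, at 0.80. For ERG/mAKT over mAKT, SOCS1 had 0.26 and IKBKE 0.07.

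Among these genes outside the 41, the largest ratios came from other interferon-stimulated genes, of which 32 were listed. LAMP3, a lysosomal protein of mature dendritic cells, had an FPKM of 0.618 in RWPE1-vector, 1.05 in RWPE1-mAKT, 5.80 in RWPE1-ERG and 4.50 in RWPE1-ERG/mAKT. TNFSF10 (TRAIL, a death ligand) had 1.04, 1.96, 1.21 and 6.96. TNFSF10 was thus high only in the line with both proteins, with a log2 ratio of 1.85 for RWPE1-ERG/mAKT over RWPE1-ERG, while LAMP3 followed ERG. The chemokine CXCL11 had 0.119, 0.154, 0.866 and 1.49. The lowest ratios on these lists were small: TBK1 and PIAS1 at -0.33 and -0.32 for ERG over vector, and WARS and IRF2 at -0.35 and -0.32 for ERG/mAKT over mAKT. With mAKT over vector the extremes were TNFSF10 (0.54) and IRF5 (0.38), and IFNK (-0.55) and JAK2 (-0.27). For ERG/mAKT over ERG they were TNFSF10 and ETV7 (0.77), and IFITM2 (-0.76) and SOCS3 (-0.66). For ERG/mAKT over vector they were TNFSF10 (1.97) and LAMP3 (1.76), and SOCS3 (-0.47) and IFNK (-0.40). For mAKT over ERG they were TNFSF10 (0.42) and MYD88 (0.39), and LAMP3 (-1.73) and IFITM2 (-0.84).

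The lines matched their labels. ERG had an FPKM of 0.264 and 0.435 in the lines without the transgene and 358 and 328 in those with it, and AKT1 was 58.7 and 64.2 without and 156 and 281 with mAKT. The keratins and EPCAM of prostate epithelium were abundant. The leukocyte markers PTPRC and CD3E, the plasmacytoid dendritic markers IL3RA and CLEC4C and the fibroblast marker PDGFRA lay at or below 0.0148, and CD14 between 0.505 and 1.09. COL1A1 ranged from 1.78 to 2.18, and COL1A2, PDGFRB and PECAM1 were at or below 0.0253. The endothelial marker CDH5 was 0.0111 in RWPE1-vector, 0.00350 in RWPE1-mAKT, 0.0103 in RWPE1-ERG and 0.210 in RWPE1-ERG/mAKT. The basal keratin KRT14 was 2936 in RWPE1-vector, 2527 in RWPE1-mAKT, 700 in RWPE1-ERG and 1185 in RWPE1-ERG/mAKT, while KRT5 was 3126, 3642, 1170 and 3519. KRT8 was highest in RWPE1-ERG at 1769. The part of these markers in the member differences was not tested, and in bulk RNA more cells with a transcript and more of it per cell cannot be told apart. The median FPKM of all genes was 10.3 to 10.6 in the lines. Their upper quartile was 28.9 in RWPE1-vector, 29.3 in RWPE1-mAKT, 30.3 in RWPE1-ERG and 28.0 in RWPE1-ERG/mAKT. The FPKM summed over all rows was less even, at 846058, 971508, 1246086 and 959573 in the same order, and thus highest in RWPE1-ERG. The part of this difference in the member ratios was not tested.

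ERG peaks were found near some members. In RWPE1-ERG/mAKT, 9 of 41 members (22.0%, Wilson 95% interval 12.0 to 36.7) had an ERG peak within 20 kb of the locus, against 32.5% of expressed genes, a share inside that interval. None lay near a peak at a q-value of at most 0.01, against 2.44% of those genes, and the Wilson 95% interval for 0 of 41 reaches 8.57%. The 11 distinct peaks had fold enrichments of 2.82 to 4.24 and a median of 3.53, equal to that of the whole list, and their -log10 q was at most 0.686. The library held 10306483 reads and its list 9113 peaks, of which 450 passed that q-value. Members in clusters share windows, and 1 peak was counted for both OAS1 and OAS3.

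In RWPE1-ERG/mAKT, IFI6 was the 1 member with an ERG peak within 1 kb of its gene start. It lay at chr1:27999027-27999135 (hg19), in intergenic sequence with its summit 398 bases upstream, at 3.53-fold enrichment and a -log10 q of 0.155, and overlapped an ATAC peak in RWPE1-ERG alone. EPSTI1 had peaks with summits 2232 and 4410 bases upstream, at 3.53-fold and 4.11-fold, and the farther one overlapped ATAC peaks in all 3 lines. IFI35 had a peak 8577 bases upstream (4.24-fold) and another in an intron, 6896 bases downstream of the start (3.53-fold). The peak shared by OAS1 and OAS3 lay in an intron of OAS1, 14111 bases downstream of its start. A peak 40642 bases downstream of the start of OAS2 had 2.94-fold enrichment, and for IFIH1 a peak 57295 bases downstream of the start had 3.93-fold. UBE2L6 had a peak 17690 bases upstream (3.53-fold) and another in an intron of SMTNL1 (2.82-fold), and LGALS3BP had a peak 14565 bases downstream (2.82-fold). Members with a peak had a median log2 ratio of 0.76 for ERG over vector (n = 9) and those without 0.68 (n = 30). For ERG/mAKT over mAKT these were 0.51 and 0.52.

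The 101 bases around the summit (hg19, plus strand, capitals mark GGAA or its complement) are printed for the peaks of IFI6, OAS1 and EPSTI1, the members near a peak that were 2-fold higher with ERG in either setting, because they are the sequences in the ERG list closest to such members.
IFI6, chr1:27999051-27999151: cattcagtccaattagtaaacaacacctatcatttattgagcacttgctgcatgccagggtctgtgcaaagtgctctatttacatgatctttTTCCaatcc
OAS1, chr12:113358828-113358928: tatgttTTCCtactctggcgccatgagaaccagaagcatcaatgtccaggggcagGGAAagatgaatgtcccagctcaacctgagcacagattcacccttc
EPSTI1, chr13:43568559-43568659: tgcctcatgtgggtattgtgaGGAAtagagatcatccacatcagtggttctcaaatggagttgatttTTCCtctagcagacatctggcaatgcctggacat
EPSTI1, chr13:43570737-43570837: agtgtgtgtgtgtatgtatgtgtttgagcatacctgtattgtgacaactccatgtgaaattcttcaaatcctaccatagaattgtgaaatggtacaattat
The farther EPSTI1 window held no GGAA. Of the 11 windows near members 6 (54.5%) held GGAA, against 67.1% of windows around all 9113 ERG peaks.

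In VCaP cells, 6 of 41 members (14.6%, interval 6.88 to 28.4) had an ERG peak within 20 kb, against 24.7% of genes, and none at a q-value of at most 0.01, against 7.66%. They were ISG15, OAS1, OAS3, STAT2, IRF9 and DDX58. The DDX58 peak lay nearest to a start, 326 bases upstream, at 3.02-fold enrichment. OAS1 and OAS3 were the members near a peak in both cell types, at different positions: chr12:113358870-113358978 in RWPE1-ERG/mAKT and chr12:113364264-113364478 in VCaP.

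Open chromatin was found around nearly all members. Each of the 3 ATAC lists had a peak within 20 kb of 40 of 41 members (97.6%), against 98.4% of genes in RWPE1-ERG, 98.3% in RWPE1-mAKT and 97.7% in RWPE1-ERG/mAKT, and IFI44 was the exception. Shares of genes within 1 kb of a start were taken over the 11749 expressed genes with an annotated start, for ATAC, ERK2 and H3K27me3 alike. Member shares were of all 41, with MX2 and SAMD9L below an FPKM of 1, so the bases are not quite the same. Within 1 kb of the gene start the counts were 33 in RWPE1-ERG (80.5%), 35 in RWPE1-mAKT (85.4%) and 26 in RWPE1-ERG/mAKT (63.4%). All genes gave 92.9%, 92.4% and 89.4%. A start peak in all 3 lists was present for 25 members (61.0%, interval 45.7 to 74.3) against 88.2% of genes, and IFI44, IFIT2, MX2, SAMD9L and XAF1 had none in any.

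IFI35, IFITM1, IFITM3, ISG15, OAS1, RSAD2 and TRIM22 had a start peak in RWPE1-ERG and RWPE1-mAKT but not in RWPE1-ERG/mAKT, 7 of 41 members (17.1%) against 3.08% of genes. Of these, RSAD2, OAS1, TRIM22 and ISG15 had their highest FPKM in that line, and IFI35, IFITM1 and IFITM3 in RWPE1-ERG. Among all 41 members 26 (63.4%) were highest in RWPE1-ERG/mAKT, so this does not set the 7 apart. The enrichment at ISG15 was 5.21-fold in RWPE1-ERG and 3.78-fold in RWPE1-mAKT, and that at OAS1 was 7.21-fold and 5.62-fold. The lists differ in length, at 63354, 57999 and 42081 peaks. With the 33000 peaks of lowest p from each, the counts were 20, 24 and 20 members (48.8%, 58.5% and 48.8%), against 77.6%, 77.6% and 81.7% of genes, and 2 of 41 members (4.88%) against 1.10% of genes had the pattern. At equal length the member count in RWPE1-ERG/mAKT was level with RWPE1-ERG and below RWPE1-mAKT, while the share of all genes was highest there. IFI27 had a start peak in RWPE1-mAKT alone, at 4.38-fold, although its FPKM was higher in both lines with ERG.

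**Figure D5:**
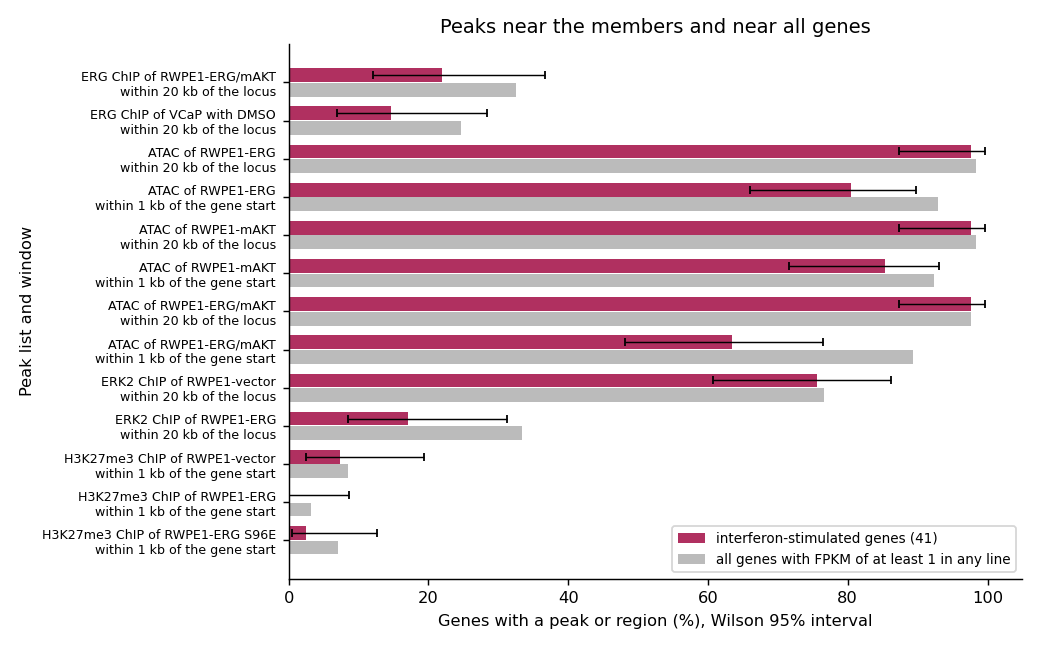
Share of genes with a peak or region in each list and window (y axis), in percent (x axis), for the 41 members (red, with Wilson 95% intervals) and all expressed genes (grey). The red bar is below the grey one for both ERG lists, with the grey value inside the interval, and the widest gap is at gene starts in the ATAC list of RWPE1-ERG/mAKT, at 63.4% and 89.4%.

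ERK2 and H3K27me3 regions were counted in the same way. ERK2, a kinase that phosphorylates ERG, had a peak within 20 kb of 31 of 41 members (75.6%) in RWPE1-vector against 76.6% of genes, and of 7 (17.1%, interval 8.53 to 31.3) in RWPE1-ERG against 33.4%, which is above the interval. Within 1 kb of the start it was 4 of 41 (9.76%) against 14% in RWPE1-vector and 0 of 41 against 9.15% in RWPE1-ERG. These lists held 41276 and 5721 peaks, so the counts cannot be compared between lines. A q-value of at most 0.01 was reached by 306 and 178 of these peaks, and by 0 of those near members in either list. With the lists cut to equal length, 5 members in RWPE1-vector and 7 in RWPE1-ERG had a peak within 20 kb, given without a share of all genes. H3K27me3, a mark of Polycomb repression, lay within 1 kb of the start of 3 of 41 members in RWPE1-vector (7.32%, interval 2.52 to 19.4) against 8.48% of genes. These were IFITM3, PARP9 and DTX3L, the last 2 from the same region, at 1.68-fold to 1.70-fold enrichment. In RWPE1-ERG it was 0 of 41 against 3.23%, and in the ERG S96E line 1 of 41 (2.44%), OASL, against 7.11%. None of the member regions reached 2-fold enrichment. The H3K27me3 lists of RWPE1-vector, RWPE1-ERG and the ERG S96E line held 492265, 228233 and 252784 regions. Of these, 29, 39 and 3413 passed a q-value of at most 0.01.

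Members with and without the promoter element had similar ratios. For ERG over vector the median log2 ratio was 0.67 in 23 members with the element (from -0.35 to 1.75) and 0.72 in 10 expressed members without it (from 0.19 to 0.97). For ERG/mAKT over mAKT it was 0.50 and 0.65. No test was run on these medians, and the ranges overlapped throughout.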

How the data were processed

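RNA-seq values came from the Cuffdiff table, in which the authors deposited 1 FPKM per gene and line after TopHat2 alignment. The table pools 3 libraries per line and holds 0 columns of single samples, so read depth is not known and no test between lines was possible. The authors' own fold changes, p-values and q-values in that table were not used. Ratios were computed here as log2 of FPKM with 1 added, over the 12670 rows that reached an FPKM of 1 in some line, and thresholds of 2-fold and 1.5-fold were descriptive. Gene members, pathway lists and roles were chosen with earlier results of these data known. Values in all lines were given for members with a 2-fold ratio in any pair of lines and for STAT2, IRF7 and IRF9.

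Peak lists were MACS2 output on hg19, made by the authors from Bowtie2 alignments with duplicates removed, and ChIP DNA was pooled from 3 experiments before sequencing. The deposited columns give a pileup signal, a fold enrichment ratio and, on the −log10 scale, p-values and q-values. The lowest −log10 p was 3.03 in the ERG list of RWPE1-ERG/mAKT, 2.01 in the ERK2 list of RWPE1-vector and 1.00 in the H3K27me3 list of RWPE1-vector, so lists were not called at 1 threshold. ChIP libraries held 8393459 to 26454542 reads per the file headers. A gene counted as near a peak when its Cuffdiff locus, extended by 20 kb, overlapped the peak by at least 1 base. Gene starts were those of GENCODE release 44 canonical transcripts on GRCh37, found for all 41 members. Intervals for shares were Wilson 95% intervals (scipy 1.17.1, pandas 2.3.3), and cover counting error only. ATAC-seq of RWPE1-vector and ERG ChIP-seq of VCaP with LY294002 were not analysed here, because the lists were attached to samples with other labels. The fold call was checked on the vector FPKM with planted changes, and the interval overlap and motif search on constructed examples. Other steps were not checked in that way.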

Additional observations from a re-analysis of the deposited data

How the results depend on the processing

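No paired analysis was possible because the FPKM are pooled over the libraries of a line, and for the same reason no library could be left out. Counts of members at least 2-fold higher depended on the value added. With 0.1 in place of 1 they were 16 for ERG over vector, 13 for ERG/mAKT over mAKT, 1 for mAKT over vector and 2 for ERG/mAKT over ERG, and 8 were 2-fold lower for mAKT over ERG. The shares of all genes under that setting were 4.95%, 3.00%, 1.63%, 2.98% and 4.93% in the same order. At 1.5-fold the counts higher were 24, 18, 2, 6 and, for ERG/mAKT over vector, 27, and the counts lower were 1 for ERG/mAKT over ERG and 12 for mAKT over ERG. At 3-fold they were 1 for ERG over vector, 1 for ERG/mAKT over mAKT, 3 for ERG/mAKT over vector and 0 lower for mAKT over ERG. Upper quartile scaling gave 1 higher for ERG/mAKT over ERG and 1 lower for mAKT over ERG, and turned the median difference of the ERG effects from -0.11 to 0.02. The direction of each median log2 ratio of the members was the same under all 5 alternatives. ERG peak counts followed the window and the q-value: within 5 kb, 50 kb and at a q-value of at most 0.01 they were 4, 14 and 0 in RWPE1-ERG/mAKT and 1, 12 and 0 in VCaP. Equal list lengths gave 5 members near ERK2 peaks in RWPE1-vector, 0 with H3K27me3 in RWPE1-vector, and 20 with an ATAC peak at the start in RWPE1-ERG. At 2-fold enrichment 0 members had H3K27me3 at the start in RWPE1-vector and 0 in the ERG S96E line. Counts at 3-fold, under upper quartile scaling, within 5 kb or 50 kb, at 2-fold enrichment and for ERK2 and H3K27me3 at equal length have no share of all genes beside them. They show only how the member count moved. The causes were not tested. The scalings of the ERG effect and of the line order, the promoter count from the first listed entry, and the ATAC lists of equal length at starts were chosen after seeing the data.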
